A study of Mus musculus with 16 samples.

Results

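The comparison described here is of female mice lacking oestrogen receptor alpha, 2 weeks after nephrotoxic serum, with untreated mice of the same genotype. Its members are the 2 arrays titled as knockout at 2 weeks and the 2 titled as untreated knockout. These 4 of the 16 arrays of the series were chosen by title alone. Each 2-week array is also set alone against untreated because the 2 were seen to disagree. That split was thus chosen with the values known, and the disagreement below is a description. Each array holds RNA of glomerular extracts from the kidney cortex of 1 mouse. The mice were C57Bl/6 (B6, wild type) or B6.ER⍺KO (knockout), 8 of each, and 2 mice of each genotype went untreated or had kidneys harvested at 18 hours, 6 days or 2 weeks from an intraperitoneal injection of sheep nephrotoxic serum at 8 ul per g of body weight. The wild type and 6-day groups serve as comparisons below, and no group carried a further allele or agent. No source used here gives the age of the mice, the part of the gene that is deleted or the severity of disease in each mouse. The series asks how this receptor bears on lipid metabolism and on glomerulonephritis, per its title.

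Nephrotoxic serum holds antibodies that bind the glomerular basement membrane, the filter on which podocytes and endothelial cells sit. The bound antibody draws in complement and leucocytes, and protein leaking through the damaged filter reaches the proximal tubule, whose cells reabsorb most of the filtered solutes and burn fatty acids to do so. Injured proximal tubule cells are known to lose their carriers and metabolic enzymes, to switch on injury genes such as Havcr1, and to enter the cell cycle. Oestrogen receptor alpha, encoded by Esr1, is a ligand-activated transcription factor.

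Levels are the deposited log2 values of 1 probeset per gene, for 30142 genes. Means of 152 genes exceed what the log2 of a 16-bit scanner reading can reach. Some unstated transformation was therefore applied, and a difference below is in deposited log2 units and is not a fold of RNA. Tests were made with limma, with Benjamini-Hochberg adjustment over all 30142 genes, and calls required an adjusted p under 0.05. The ± after a difference is its standard error. Where a 2-week array was set alone against the 2 untreated arrays, the other 2-week array was left out of the fit, and the lone array was assumed to vary like those of the other groups. At 2 weeks the median SD between replicates was 0.172 in knockout and 0.188 in wild type, against 0.078 to 0.106 in the other groups. The assumption is thus doubtful, and p-values of a lone array do not measure the spread between knockout mice at 2 weeks. Calls for wild type come from the mean of its 2 arrays in the fit of all 16, so their counts are not like for like with those of a lone array. In extracts of whole tissue, fewer cells of a type and less RNA per cell cannot be told apart.

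Esr1 stood at 7.40 and 7.56 in the untreated knockout arrays and at 7.56 and 7.61 in the 2-week knockout arrays. The levels touched, and the mean difference was 0.11 ± 0.23 (limma adjusted p = 0.942). In wild type it was 7.04 and 7.0 untreated, so the probeset gave no lower signal in the knockout, and no source used here says whether it covers the deleted part. Nphs1, which encodes the slit diaphragm protein nephrin of podocytes, was at 10.08 and 10.77 in the untreated knockout arrays. Slc22a6, an organic anion carrier of the proximal tubule, was at 16.43 and 16.28, so RNA of tubule, which lies outside the glomerulus, was measured in these extracts as well. At 18 hours, replicate 2 of each genotype carried Slc7a13, an amino acid carrier known to be higher in male mouse kidney, near the level of the other genotype (16.97 in wild type and 5.15 in knockout, against 5.90 and 16.12 in replicates 1), and these arrays enter the spread shared by all groups.

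The 2 knockout arrays at 2 weeks had more genes far apart than the replicates of any other group, although the median SD between replicates was 0.172, below the 0.188 of wild type at 2 weeks. Between them 556 genes lay more than 2 log2 units apart, against 6 genes in untreated knockout, 112 in wild type at 2 weeks and between 13 and 130 in the other 5 groups. The split ran through the genes of tubule injury. Havcr1, the kidney injury molecule of proximal tubule, was at 7.95 and 7.28 in the untreated arrays, at 7.17 in 2-week replicate 1 and at 12.77 in 2-week replicate 2. Replicate 1 thus lay below both untreated arrays and replicate 2 far above them, and the mean difference of 2.36 ± 1.41 was not called (limma adjusted p = 0.682).

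Set against untreated, the 2 arrays together gave 33 called genes (0.109% of those tested), all higher, with 2488 genes at an unadjusted p under 0.05. This count fell to 10 without untreated replicate 1, to 2 without untreated replicate 2 and to 18 without the 18-hour replicates 2, and a fit of these 4 arrays alone called none (1476 at an unadjusted p under 0.05, limma). Without 2-week replicate 1 the count was 1598, and without 2-week replicate 2 it was 731, since each array then stands alone. Replicate 2 alone had 677 genes higher (2.25%) and 921 lower (3.06%). Quantile normalization turned that split to 955 higher and 650 lower, and centring each array on its median to 441 higher and 1327 lower. Without untreated replicate 1 only 87 genes were called in replicate 2, and without untreated replicate 2 only 3, so all but 3 of the calls given below for this array were lost without that one mouse. Replicate 1 alone had 726 genes higher (2.41%) and 5 lower (0.0166%), with 396 called in all without untreated replicate 1, 266 without untreated replicate 2, 93 among the genes of above-median level and 438 with each array centred. Centring also moved the median difference of all genes in replicate 1 from 0.03 to -0.126, so its small rises are relative to the deposited scale. The genes higher in replicate 2 had a median difference of 1.10 there and of 0 in replicate 1, and the lower genes of -1.35 and -0.09. Both arrays are set against the same untreated mice, so these pairs of values are not independent.

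Of the 33 genes called over both arrays, 30 lie on chromosome 14, which carries 1219 of the genes tested. They are genes known only by numbered symbols, and many are near copies of one another. The promoters of a pair are shown because they let the likeness of the copies be seen. RefSeq (GRCm38.p6) promoters, 250 bases before to 50 after the start, were found for 23 of the 30, and 16 of these had another of the 23 that was over 85% identical. Gm3317 (chr14:5163392-5163691, + strand) shared the smallest adjusted p with Gm3239. Of the 23, Gm6337 (chr14:6058155-6058454, - strand) has the promoter most similar to that of Gm3317, with 291 of 300 bases the same (97.0%). Gm3317, Gm6337 and Gm7995 below were chosen after their values were seen. Capitals mark the aligned bases that differ.
Gm3317: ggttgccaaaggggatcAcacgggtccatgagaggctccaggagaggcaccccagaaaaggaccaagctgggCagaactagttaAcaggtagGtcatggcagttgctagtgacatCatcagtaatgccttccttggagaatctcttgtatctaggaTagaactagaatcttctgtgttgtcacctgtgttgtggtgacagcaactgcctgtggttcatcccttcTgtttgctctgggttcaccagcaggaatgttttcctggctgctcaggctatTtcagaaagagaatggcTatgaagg
Gm6337: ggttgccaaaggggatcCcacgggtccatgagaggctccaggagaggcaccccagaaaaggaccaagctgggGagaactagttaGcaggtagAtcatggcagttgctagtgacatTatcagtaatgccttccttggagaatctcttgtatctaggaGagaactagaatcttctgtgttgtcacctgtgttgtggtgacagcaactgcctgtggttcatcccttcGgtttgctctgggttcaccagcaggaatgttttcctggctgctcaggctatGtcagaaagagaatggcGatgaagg

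Gm3317 was at 7.78 and 7.60 in untreated knockout, and at 9.61 and 9.45 in the 2-week arrays. Both 2-week arrays were high and did not overlap the untreated ones, with a difference of 1.84 ± 0.15 (limma adjusted p = 0.000996). Gm6337 went from 5.52 and 5.45 to 6.33 and 6.40 (0.88 ± 0.14, limma adjusted p = 0.044). The greatest difference of the 33 was that of Gm7995, at 6.54 and 6.19 untreated and 8.76 and 8.57 at 2 weeks (2.30 ± 0.28, limma adjusted p = 0.0117). Over the 30 genes the differences ran from 0.79 to 2.30 with a median of 1.5, and the median level was 7.08 and 6.84 in the untreated arrays, 8.73 in replicate 1 and 8.34 in replicate 2. These are values that chose the genes and support nothing further. In knockout at 6 days the median level was 7.70 and 7.61. The differences from untreated there ran from -0.07 to 0.92, with a median of 0.59 (0 over all genes), and none of the 30 was called, where 4 of all 30142 genes were. They share the untreated arrays that chose the genes. In wild type, which shares no array with this comparison, 26 of the 30 were called higher at 2 weeks (4.81% of all genes were), with a median difference of 1.07. These calls came from the same fit and used the same spread for each gene. Genes chosen in part for a small spread are favoured there too, so the count is not independent of the choice. Copies that share sequence can share probe signal, so the 30 are not separate observations, and which copy gave the signal cannot be told.

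**Figure D1:**
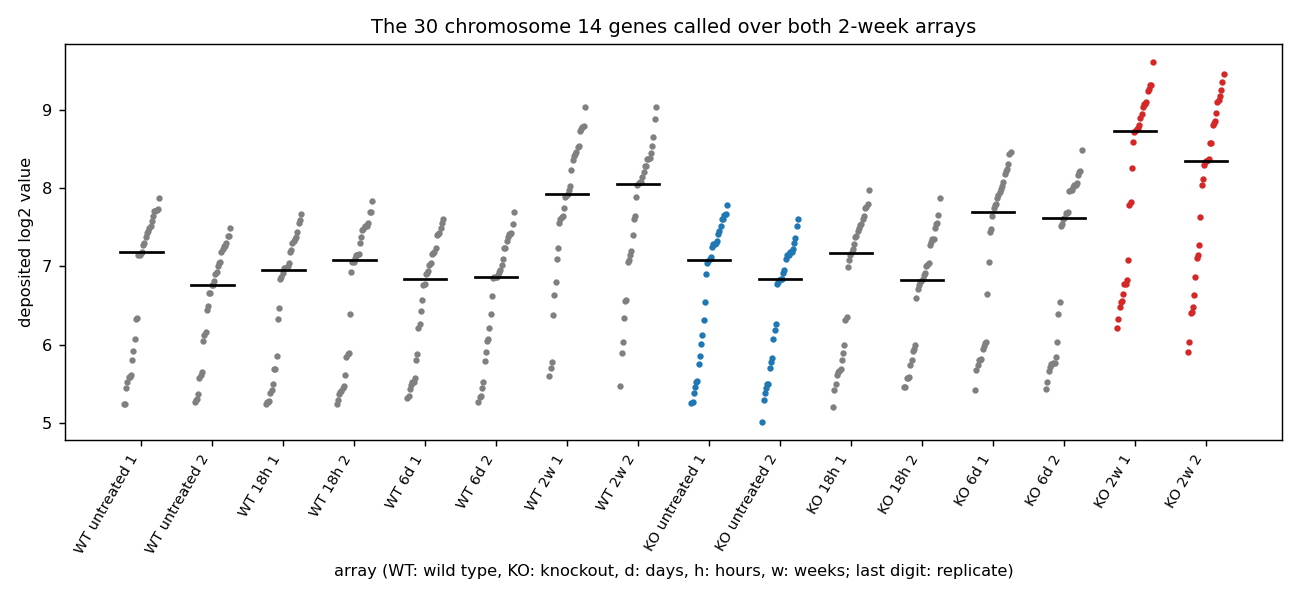
Deposited log2 level of the 30 chromosome 14 genes (points, sorted within each array) on the vertical axis in each of the 16 arrays, with the median of the 30 as a bar. The 2 knockout arrays at 2 weeks (red) have medians of 8.73 and 8.34, above the 7.08 and 6.84 of the untreated knockout arrays (blue).

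Outside chromosome 14 the called genes were a small RNA and 2 named genes. Adamts6, a secreted metalloprotease, was at 8.21 and 8.20 untreated and at 9.04 and 9.24 in the 2-week replicates 1 and 2. The groups did not overlap, and the difference of 0.94 ± 0.15 was called (limma adjusted p = 0.044). Wild type had Adamts6 at 8.54 and 8.25 untreated and at 8.16 in both 2-week arrays. At 18 hours it was at 9.03 and 8.96 in knockout and at 9.01 and 8.81 in wild type, so such levels were not particular to knockout at 2 weeks. At 6 days it was at 8.47 and 8.59 in knockout. Zfp979, a zinc finger protein, went from 7.07 and 7.10 to 8.18 and 7.91, again without overlap (0.96 ± 0.13, limma adjusted p = 0.0189). It was already at 7.93 and 7.97 in knockout at 6 days. Wild type had Zfp979 at 6.77 and 7.02 untreated, 7.38 and 7.34 at 6 days and 7.58 and 7.71 at 2 weeks, so higher levels after serum were not particular to knockout. Leaving out either untreated array ended both calls (limma adjusted p between 0.216 and 0.558), as did leaving out the 18-hour replicates 2 (0.148 for Adamts6 and 0.0805 for Zfp979). Adamts6 was also not called after quantile normalization (limma adjusted p = 0.0573) or centring (0.159).

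In replicate 2 alone, genes of tubule injury, cell division, adhesion and matrix were higher, and genes of proximal tubule transport and metabolism were lower. Counts of called list members in this array are to be read beside the shares of all genes called in it, given above. Where only a few members of a list were called, the count says little about the list. Of 23 tubule injury genes 10 were called higher and none lower, with a median difference of 1.64 in replicate 2, -0.13 in replicate 1 and 0 and 0.03 over all genes in the same arrays. Havcr1 differed by 5.16 ± 0.95 in replicate 2 (limma adjusted p = 0.0189). Vcam1, the vascular cell adhesion molecule that injured tubule cells also make, was at 6.68 and 6.64 untreated, 6.28 in replicate 1 and 10.08 in replicate 2 (3.42 ± 0.74, limma adjusted p = 0.03). Cdkn1a, the cell cycle inhibitor p21, was at 6.62 in both untreated arrays, 6.82 in replicate 1 and 9.78 in replicate 2 (3.16 ± 0.68, limma adjusted p = 0.0293). For each of these genes replicate 1 lay within 0.45 of the untreated mean. The annexins Anxa1 and Anxa2, membrane-binding proteins of injured epithelium, were higher by 2.81 ± 0.42 and 2.74 ± 0.51. Lcn2, which encodes the secreted injury marker NGAL, was at 5.39 and 4.97 untreated and 7.34 in replicate 2, and this difference was not called (limma adjusted p = 0.21).

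Of 26 cell cycle and mitosis genes 19 were called higher in replicate 2 and none lower, with a median difference of 1.07 against 0.06 in replicate 1. Mki67, the proliferation marker Ki-67, was at 6.32 and 5.59 untreated, 6.01 in replicate 1 and 9.24 in replicate 2 (3.29 ± 0.53, limma adjusted p = 0.0139). Top2a, a topoisomerase of dividing cells, was at 5.47 and 5.29 untreated, 5.42 in replicate 1 and 7.40 in replicate 2 (2.02 ± 0.23, limma adjusted p = 0.00783). Prc1, a protein of the mitotic spindle midzone, was at 5.23 in both untreated arrays, 5.35 in replicate 1 and 6.90 in replicate 2. In each of these genes only replicate 2 stood apart from the other 3 arrays of the comparison. Wild type at 2 weeks had 21 of the 26 called higher, where 4.81% of all genes were.

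Other genes that rose far in replicate 2 were of several kinds. Of 17 fibrin and clotting genes 3 were called higher and none lower (median 0.57). Cd248 (endosialin, of pericytes and fibroblasts) was at 7.99 and 8.53 untreated, 7.56 in replicate 1 and 12.31 in replicate 2 (4.05 ± 0.53, limma adjusted p = 0.0095). Serpina10, an inhibitor of clotting factor Xa, was at 5.0 and 4.67 untreated, 4.78 in replicate 1 and 9.46 in replicate 2 (4.62 ± 0.79, limma adjusted p = 0.015). F2r, the thrombin receptor PAR1, differed by 3.19 ± 0.63, Adm (adrenomedullin, a vasodilator peptide) by 3.06 ± 0.40, and Gja5 (connexin 40 of endothelium and renin cells) by 2.84 ± 0.49. Anxa3 (4.05 ± 0.55), Plod2, a collagen lysyl hydroxylase (3.03 ± 0.44), Myof, a membrane repair protein (3.02 ± 0.67), Vim, the intermediate filament vimentin (3.02 ± 0.55), and D17H6S56E-5 (3.64 ± 0.48) were also called. All of these lay within 0.71 of the untreated mean in replicate 1, so the high values were those of replicate 2 alone.

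Of 34 extracellular matrix genes 5 were called higher in replicate 2 and none lower (median 0.68), and of 25 inflammatory cytokine and adhesion genes 8 and none (median 0.67). Col12a1, a fibril-associated collagen, was at 6.92 and 6.69 untreated, 6.63 in replicate 1 and 9.34 in replicate 2 (2.54 ± 0.31, limma adjusted p = 0.00808). Sparc, a matricellular protein, differed by 2.72 ± 0.48, and Lama5, a laminin chain of the glomerular basement membrane, by 1.61 ± 0.32. Fn1, which encodes fibronectin, was at 8.38 and 8.14 untreated, 7.10 in replicate 1 and 9.31 in replicate 2, and was not called (limma adjusted p = 0.663). The replicates thus lay on opposite sides of untreated for Fn1. Nfkbia, the NF-kappaB inhibitor and target, was higher by 2.50 ± 0.40 in replicate 2 and Csf1, the macrophage growth factor, by 2.04 ± 0.43. Of 23 chemokine genes, a separate list, 2 were called higher and none lower (median 0.10): Ccl2, a monocyte chemokine, by 1.64 ± 0.22, and Cxcl1, a neutrophil chemokine, by 1.67 ± 0.36. All 4 were called there (limma adjusted p between 0.00953 and 0.0287).

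Of 23 macrophage markers none was called in either 2-week array, in a comparison that called 2.25% of all genes higher in replicate 2, and a count of 0 is near that background. Of the 23 markers 19 lay above the untreated mean in replicate 2 and 10 in replicate 1 (15302 and 16829 of all 30142 genes did), with median differences of 0.18 and -0.01. The mean over the list was 6.01 and 5.91 untreated, 5.92 in replicate 1 and 6.22 in replicate 2. Lyz2, the lysozyme of macrophages and neutrophils, was at 7.31 and 7.08 untreated, 6.93 in replicate 1 and 8.17 in replicate 2 (0.98 ± 0.39, limma adjusted p = 0.191), and at 10.17 and 10.56 in wild type at 2 weeks. Tyrobp, a signalling adaptor of myeloid cells, was at 5.74 and 5.78 untreated, 5.50 in replicate 1 and 5.94 in replicate 2, and at 7.01 and 7.20 in wild type at 2 weeks. Wild type had 15 of the 23 macrophage markers called higher, where 4.81% of all genes were. So were 12 of 24 interferon response genes, 6 of 9 MHC class II genes and 10 of 17 Fc receptor and immune signalling genes. In knockout replicate 2 none of the first 3 lists had a member called, and of the fourth 1 was called, Fcgr2b, the inhibitory Fc gamma receptor, which was lower (9.61 and 10.11 untreated, 8.59 in replicate 2, limma adjusted p = 0.0161). Whether the genotypes differ in this is a matter for the test of the difference of responses, given below, which called no gene. Of the T and NK, B and plasma cell and neutrophil lists (15, 11 and 13 markers) none had a member called in replicate 2, where few would at the background share.

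Genes of the glomerular cells were on the high side in replicate 2 and on the low side in replicate 1. All 17 podocyte markers lay above the untreated mean in replicate 2 and 2 of 17 did in replicate 1. Of 19 endothelial markers 17 were above in replicate 2 and 0 in replicate 1, and of 12 mesangial and smooth muscle markers 12 and 0, while over all 30142 genes 15302 and 16829 were above. Few of these differences were called: 1 podocyte marker, no endothelial and 2 mesangial markers in replicate 2, and none in replicate 1. Nphs1 was at 9.96 in replicate 1 and 12.75 in replicate 2 (2.32 ± 0.74 in replicate 2, limma adjusted p = 0.0993). Kdr, the VEGF receptor of endothelium, was at 10.52 and 11.12 untreated, 9.63 in replicate 1 and 11.97 in replicate 2 (limma adjusted p = 0.462 in replicate 2). Nes, which encodes nestin of podocytes, was the podocyte marker called, at 8.64 and 8.85 untreated, 8.44 in replicate 1 and 11.23 in replicate 2 (2.49 ± 0.57, limma adjusted p = 0.0354). The mean over podocyte markers was 8.60 and 8.96 untreated, 8.45 in replicate 1 and 10.01 in replicate 2, and over endothelial markers 9.37 and 9.75, 8.83 and 10.53.

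Proximal tubule genes moved the other way in replicate 2. Of 24 proximal tubule markers 11 were called lower and none higher, with a median difference of -2.24 in replicate 2 and -0.18 in replicate 1, and all 24 lay below the untreated mean in replicate 2. In wild type at 2 weeks 10 of the 24 were called lower (3.23% of all genes were), with a median of -2.19. Their mean was 15.51 and 15.69 untreated, 15.28 in replicate 1 and 13.53 in replicate 2, while the mean over podocyte markers was higher in the same array. The part that the mixture of glomerular and tubular tissue in each extract plays in the results of either array was not tested. Slc22a6 was at 16.26 in replicate 1 and 13.07 in replicate 2 (-3.29 ± 0.75, limma adjusted p = 0.0345). Of 40 tubule solute carrier genes 16 were called lower and none higher (median -1.91). Slc5a8, a carrier of lactate and other monocarboxylates, was at 15.27 and 15.04 untreated, 15.24 in replicate 1 and 11.34 in replicate 2 (-3.81 ± 0.76, limma adjusted p = 0.0237). Slc2a5, the fructose transporter, was at 10.45 and 11.03 untreated, 9.90 in replicate 1 and 7.0 in replicate 2 (-3.73 ± 0.48, limma adjusted p = 0.00901). Here replicate 1 was also below both untreated arrays, though its own difference of -0.84 ± 0.48 was not called (limma adjusted p = 0.676). Slc17a3, a urate and organic anion carrier, differed by -3.05 ± 0.45 in replicate 2.

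Other genes that fell far in replicate 2 were of several kinds. Mep1b, the beta subunit of the brush border protease meprin, was at 13.64 and 13.79 untreated, 13.89 in replicate 1 and 9.71 in replicate 2 (-4.00 ± 0.74, limma adjusted p = 0.0189). Dnase1, the secreted deoxyribonuclease, was at 12.26 and 13.42 untreated, 12.34 in replicate 1 and 7.96 in replicate 2 (-4.88 ± 1.08, limma adjusted p = 0.0314). Slc51a, a subunit of the basolateral steroid and bile acid carrier, was at 13.61 and 11.76 untreated, 11.74 in replicate 1 and 8.37 in replicate 2 (-4.32 ± 1.02, limma adjusted p = 0.039). Replicate 1 stayed close to untreated for Mep1b, and close to the lower untreated array for Dnase1 and Slc51a. Susd2, a sushi domain membrane protein, differed by -3.94 ± 0.78, and Aspa, which cleaves N-acetylaspartate, by -3.42 ± 0.60. Kl, which encodes Klotho, the co-receptor of a phosphate-regulating hormone, was at 15.76 and 15.55 untreated, 15.35 in replicate 1 and 12.82 in replicate 2 (-2.83 ± 0.45, limma adjusted p = 0.0129).

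**Figure D2:**
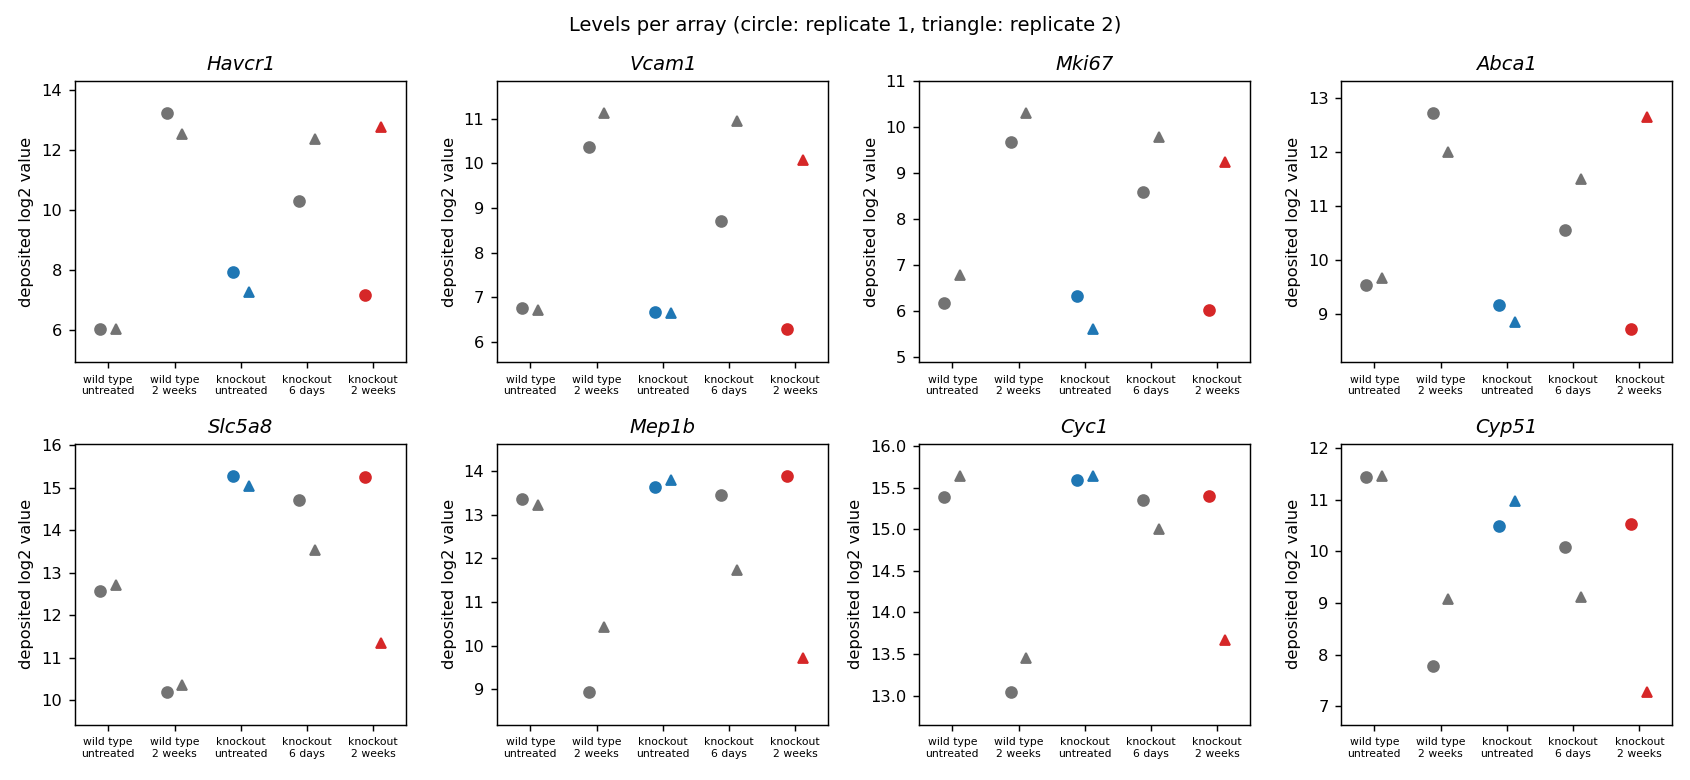
Deposited log2 level (vertical axes) of 8 genes in wild type and knockout arrays, untreated and 2 weeks after serum, and in knockout at 6 days, with circles for replicate 1 and triangles for replicate 2. Knockout 2-week replicate 2 (red triangle) differs from untreated knockout (blue) in each gene, as for Havcr1 at 12.77, where replicate 1 (red circle) is at 7.17.

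Genes of energy metabolism were also lower in replicate 2. Of 23 oxidative phosphorylation genes 15 were called lower in replicate 2 and none higher, with a median of -1.33 against -0.13 in replicate 1. Cyc1, a subunit of respiratory complex III, was at 15.59 and 15.64 untreated, 15.40 in replicate 1 and 13.67 in replicate 2 (-1.95 ± 0.27, limma adjusted p = 0.0101). Of 26 fatty acid oxidation genes 10 were called lower and none higher (median -1.32), and of 13 gluconeogenesis genes 5 and none (median -2.11). Cpt2, a carnitine transferase of the inner mitochondrial membrane, was at 11.33 and 11.59 untreated, 11.34 in replicate 1 and 9.24 in replicate 2 (-2.22 ± 0.53, limma adjusted p = 0.0398). Fbp1, the fructose bisphosphatase of gluconeogenesis, was at 15.10 and 15.39 untreated, 15.13 in replicate 1 and 12.49 in replicate 2 (-2.75 ± 0.52, limma adjusted p = 0.0199). Eci3, an enoyl-CoA isomerase, and Acsm1, a medium-chain acyl-CoA synthetase, differed by -3.73 ± 0.86 and -3.67 ± 0.72. Of 21 antioxidant and metallothionein genes 4 were called lower and none higher, among them Cat, which encodes catalase (-2.94 ± 0.45), and Sod1, superoxide dismutase (-1.60 ± 0.32).

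Genes of lipid handling, the subject of the series' title, moved in both directions in replicate 2. Over 20 cholesterol efflux and lipoprotein genes the median difference was 0.09 in replicate 2 and -0.05 in replicate 1. It was -0.63 and -0.33 over 24 fatty acid synthesis and storage genes, and -0.21 and -0.24 over 23 PPAR and metabolic regulators. Single genes named below had larger differences than these medians and do not stand for their lists. Of 15 cholesterol synthesis and uptake genes 5 were called lower and none higher (median -0.91 in replicate 2 and -0.19 in replicate 1). Cyp51, the sterol demethylase, was at 10.50 and 10.98 untreated, 10.54 in replicate 1 and 7.27 in replicate 2 (-3.47 ± 0.76, limma adjusted p = 0.0308). Hmgcs1, an early enzyme of the pathway, was at 12.60 and 12.69 untreated, 13.14 in replicate 1 and 10.56 in replicate 2 (-2.09 ± 0.41, limma adjusted p = 0.023). Insig1, which holds the sterol regulatory factors in the endoplasmic reticulum, differed by -1.46 ± 0.30 and Sc5d, a sterol desaturase, by -1.72 ± 0.27. In wild type at 2 weeks none of the 15 was called, and their median difference was -0.72. Cyp51 differed there by -3.02 ± 0.92 (limma adjusted p = 0.0664). The wild type test took the mean of 2 arrays, with a spread that included both knockout 2-week arrays. The counts of the 2 genotypes are therefore not like for like. Abca1, the cholesterol exporter, was at 9.18 and 8.85 untreated, 8.72 in replicate 1 and 12.66 in replicate 2 (3.65 ± 0.56, limma adjusted p = 0.0119). Mylip, which degrades the LDL receptor, was at 10.36 and 10.30 untreated, 11.07 in replicate 1 and 12.10 in replicate 2 (1.77 ± 0.33, limma adjusted p = 0.0203). Both arrays were above untreated for Mylip, and replicate 2 alone for Abca1. Apom, an apolipoprotein, and Vldlr, a lipoprotein receptor, differed by -3.03 ± 0.66 and -1.32 ± 0.22. Cd36, a fatty acid uptake receptor, was at 14.33 and 13.52 untreated, 14.80 in replicate 1 and 10.80 in replicate 2 (-3.12 ± 0.79, limma adjusted p = 0.0482). Scd1, a fatty acid desaturase, was at 11.28 and 12.15 untreated and at 9.89 and 10.66 in the 2-week replicates 1 and 2, below untreated in both and not called (limma adjusted p = 0.812 over both arrays).

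Genes that differ between male and female mouse kidney also separated the 2 arrays. Slc7a13 was at 16.98 and 16.64 untreated, 17.22 in replicate 1 and 11.26 in replicate 2. Pzp, a protease inhibitor in the list of male-biased genes, was at 14.06 and 13.09 untreated, 15.03 in replicate 1 and 8.40 in replicate 2. Cyp4a14, a fatty acid hydroxylase known to be higher in females, was at 11.01 and 11.47 untreated, 8.31 in replicate 1 and 14.21 in replicate 2. Replicate 1 thus lay beyond both untreated arrays in one direction and replicate 2 in the other for these 3 genes. Cyp4a14 did not stand for its list: of 14 female-biased genes 5 lay above the untreated mean in replicate 2 and 6 in replicate 1, the median differences were -1.78 and -0.05, and 2 were called lower in replicate 2, Dnase1 and Cyp2a4 (-3.19 ± 0.74, limma adjusted p = 0.0367). The difference of Slc7a13 in replicate 2 was -5.55 ± 4.30 (limma adjusted p = 0.578). Without the 18-hour replicates 2 it was called (limma adjusted p = 0.0319). All 22 male-biased genes of the list lay below the untreated mean in replicate 2 and 15 of 22 above it in replicate 1. Their median differences were -2.81 and 0.38. In replicate 2 the medians were -2.24 over proximal tubule markers and -1.91 over tubule solute carriers. Whether the sex-biased genes moved apart from other tubule genes was not tested. The mean over the 22 male-biased genes was 15.44 and 14.97 in untreated knockout and 10.69 and 10.47 in untreated wild type. Of these 22 genes 2 were called lower in replicate 2.

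**Figure D3:**
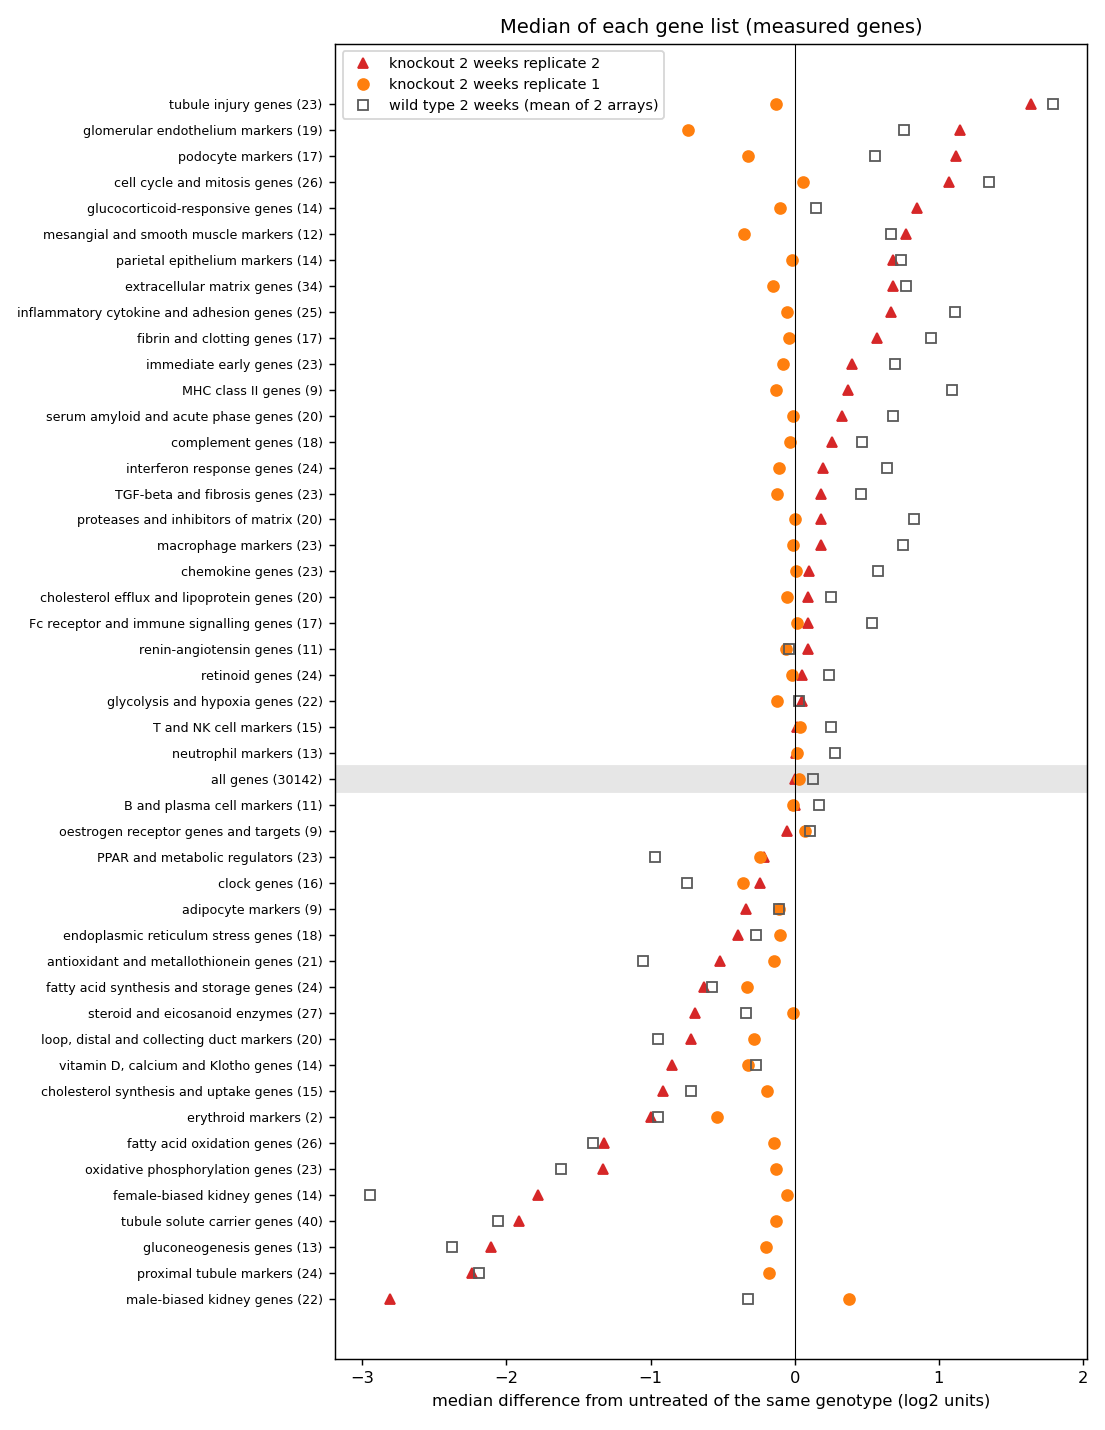
Median difference from untreated of the same genotype (horizontal axis, log2 units) of each gene list, with the number of genes measured in brackets, for knockout 2-week replicate 1 (circles), replicate 2 (triangles) and wild type at 2 weeks (squares, mean of 2 arrays), and no error bars. Tubule injury genes have medians of -0.13 in replicate 1 and 1.64 in replicate 2, and proximal tubule markers of -0.18 and -2.24.

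What was called in replicate 1 was of another kind. Of its 726 higher genes 89.3% carry the symbol of a predicted transcript, small RNA, receptor or antigen receptor segment, against 43.7% of all genes and 26.7% of the higher genes of replicate 2. Small RNAs made up 26.4% of them (8.72% of all genes), pseudogenes 21.8% (15.5%) and protein-coding genes 43.1% (63.2%). Their median untreated level was 4.89, against 5.94 for all genes. Over all 2627 small RNAs the mean level was 6.51 and 6.44 in untreated knockout, 6.84 in replicate 1 and 6.74 in replicate 2. In wild type it was 6.58 and 6.54 untreated and 6.82 and 6.80 at 2 weeks. Both 2-week arrays of each genotype were thus above the untreated arrays of that genotype. Knockout at 18 hours was also above untreated knockout, at 6.68 and 6.67, while wild type at 18 hours was at 6.57 and 6.52. Knockout at 6 days was at 6.48 and 6.50.

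**Figure D4:**
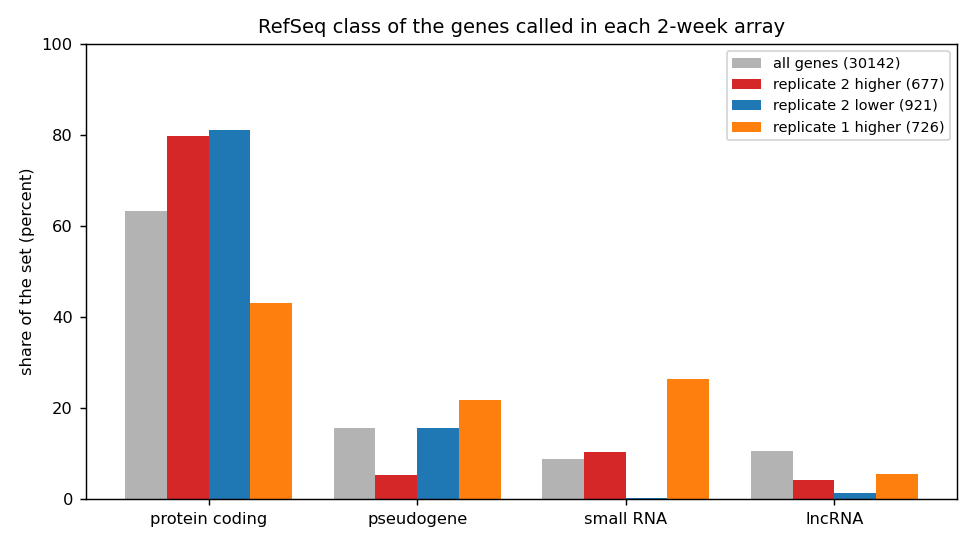
Share in percent (vertical axis) of 4 RefSeq gene classes among all genes, the genes higher and lower in replicate 2 and the genes higher in replicate 1, with the number of genes in brackets. Small RNAs make up 26.4% of the genes higher in replicate 1 and 8.72% of all genes.

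Few named genes were called in replicate 1. Cish, an inhibitor of STAT5 signalling that cytokines induce, was at 6.59 and 6.57 untreated, 9.58 in replicate 1 and 8.18 in replicate 2 (3.0 ± 0.59 in replicate 1, limma adjusted p = 0.0238). Ccl28, an epithelial chemokine, was at 8.25 and 7.93 untreated, 11.14 in replicate 1 and 9.40 in replicate 2 (3.05 ± 0.57 in replicate 1, limma adjusted p = 0.0197). Irs2, an adaptor of the insulin receptor, was at 10.76 and 10.83 untreated, 12.66 in replicate 1 and 11.24 in replicate 2 (1.86 ± 0.29 in replicate 1, limma adjusted p = 0.00816). For each of these 3 genes both 2-week arrays lay above both untreated knockout arrays, with replicate 1 the higher. In untreated wild type Ccl28 was at 9.91 and 9.26 and Irs2 at 12.32 and 11.80, above untreated knockout. In knockout at 6 days Irs2 was at 11.74 and 11.64. Btbd35f14, Btbd35f18, Btbd35f16, Btbd35f5 and Btbd35f27 of one numbered family of BTB-domain genes were higher by 2.08 to 3.21 in replicate 1. Members of one family can share probe signal, so they are uncertain as separate calls, and for Btbd35f18 replicate 2 was at 4.40 against 4.14 and 4.56 untreated. Of the 5 genes lower in replicate 1, 3 have names. Clec14a, an endothelial lectin, was at 7.02 and 7.06 untreated, 5.88 in replicate 1 and 8.00 in replicate 2 (-1.16 ± 0.25 in replicate 1, limma adjusted p = 0.0399). Tent4a, a poly(A) polymerase, was at 9.25 and 9.27 untreated and at 8.44 and 8.57 in the 2-week arrays (-0.82 ± 0.17 and -0.69 ± 0.17, limma adjusted p = 0.03 and 0.0448). It was called lower in each array alone, but not over both (limma adjusted p = 0.118). The third was Depp1, induced by fasting and progesterone, at 7.99 and 8.13 untreated, 7.09 in replicate 1 and 8.04 in replicate 2. In the gene lists, Klrb1c of NK cells was the one member called in replicate 1 (4.97 and 4.98 untreated, 5.78, limma adjusted p = 0.0237).

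Both 2-week arrays lay above both untreated arrays in 5972 genes (19.8%) and below them in 4401 (14.6%), and by more than 1 log2 unit in 67 (0.222%) and 15 (0.0498%). Of all genes tested 33 were called, and the genes described next are some of those with wide gaps among genes that do not carry numbered symbols. Some chromosome 14 genes, such as Gm7995, had wider gaps. Cish had a mean difference of 2.30 ± 0.55 (limma adjusted p = 0.202). In untreated wild type it stood at 9.25 and 8.98 and at 2 weeks at 8.72 and 8.67, and in knockout at 6 days at 7.64 and 7.70. Gsdmc2, a gasdermin, was at 7.43 and 7.17 untreated and at 8.81 and 9.51 at 2 weeks (1.86 ± 0.75, limma adjusted p = 0.56). Its neighbour in name Gsdmc3 went from 7.0 and 6.77 to 8.26 and 9.04, and the 2 may share probe signal. Wild type had Gsdmc2 at 9.35 and 7.41 untreated and 8.11 and 6.44 at 2 weeks. Il34, a ligand of the macrophage colony stimulating factor receptor made by tubule cells, was at 7.68 and 7.40 untreated and at 8.94 and 10.13 at 2 weeks (2.00 ± 0.57, limma adjusted p = 0.298). Resf1, which silences retroelements, went from 10.58 and 10.66 to 12.42 and 11.86, and Cpe, carboxypeptidase E, from 9.42 and 8.21 to 10.30 and 11.55. Il34, Resf1 and Cpe were at 9.87 and 10.60, 12.10 and 12.16, and 11.55 and 11.91 in knockout at 6 days, so levels above the untreated range were present by then.

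On the low side, Cyp2d26, a cytochrome P450, was at 14.51 and 15.38 untreated and at 12.86 and 12.82 at 2 weeks (-2.11 ± 0.86, limma adjusted p = 0.561). Slc7a8, a neutral amino acid carrier, went from 13.64 and 14.18 to 12.26 and 11.59 (-1.99 ± 0.65, limma adjusted p = 0.404). Hmox1, haem oxygenase, went from 7.64 and 8.24 to 6.34 and 6.48 (-1.53 ± 0.49, limma adjusted p = 0.386). In these genes both 2-week arrays were alike and none overlapped untreated, yet none was called, and the standard errors rest on the spread of all groups. Fasn, the fatty acid synthase, was at 10.96 and 10.82 untreated and at 9.72 and 8.85 at 2 weeks (-1.60 ± 0.41, limma adjusted p = 0.234). Gsta2, a glutathione transferase, went from 12.87 and 13.71 to 11.32 and 11.54, and Slc34a3, a phosphate cotransporter, from 10.82 and 11.24 to 9.63 and 8.13. Spp2, a secreted phosphoprotein, went from 13.09 and 13.66 to 11.85 and 10.08. Dbp, a transcription factor of the circadian output, was at 8.97 and 9.13 untreated and at 7.76 and 7.77 at 2 weeks (-1.28 ± 0.60, limma adjusted p = 0.61). Of 16 clock genes 8 lay below untreated in both arrays and 3 above, where 14.6% and 19.8% of all genes did. Nr1d1, the repressor REV-ERB alpha, was among those below (9.26 in both untreated arrays, 8.39 and 8.58 at 2 weeks). Per3, a period gene, was below as well (9.76 and 9.63, then 8.98 and 8.94), and Arntl, which encodes the clock activator, was above (6.11 and 6.50, then 7.01 and 7.04). No source used here gives the hour at which kidneys were taken, and its part was not tested.

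Counted in the same way, 16 of 24 proximal tubule markers and 18 of 23 oxidative phosphorylation genes lay below untreated in both arrays. So did 22 of 40 tubule solute carriers and 16 of 24 fatty acid synthesis and storage genes, against 14.6% of all genes. Of 26 cell cycle genes 13 lay above, against 19.8% of all genes. In replicate 1 the median differences of these lists were -0.18, -0.13, -0.13, -0.33 and 0.06, so the shared direction rests on small differences in that array. No member of these lists was called over both arrays.

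**Figure D5:**
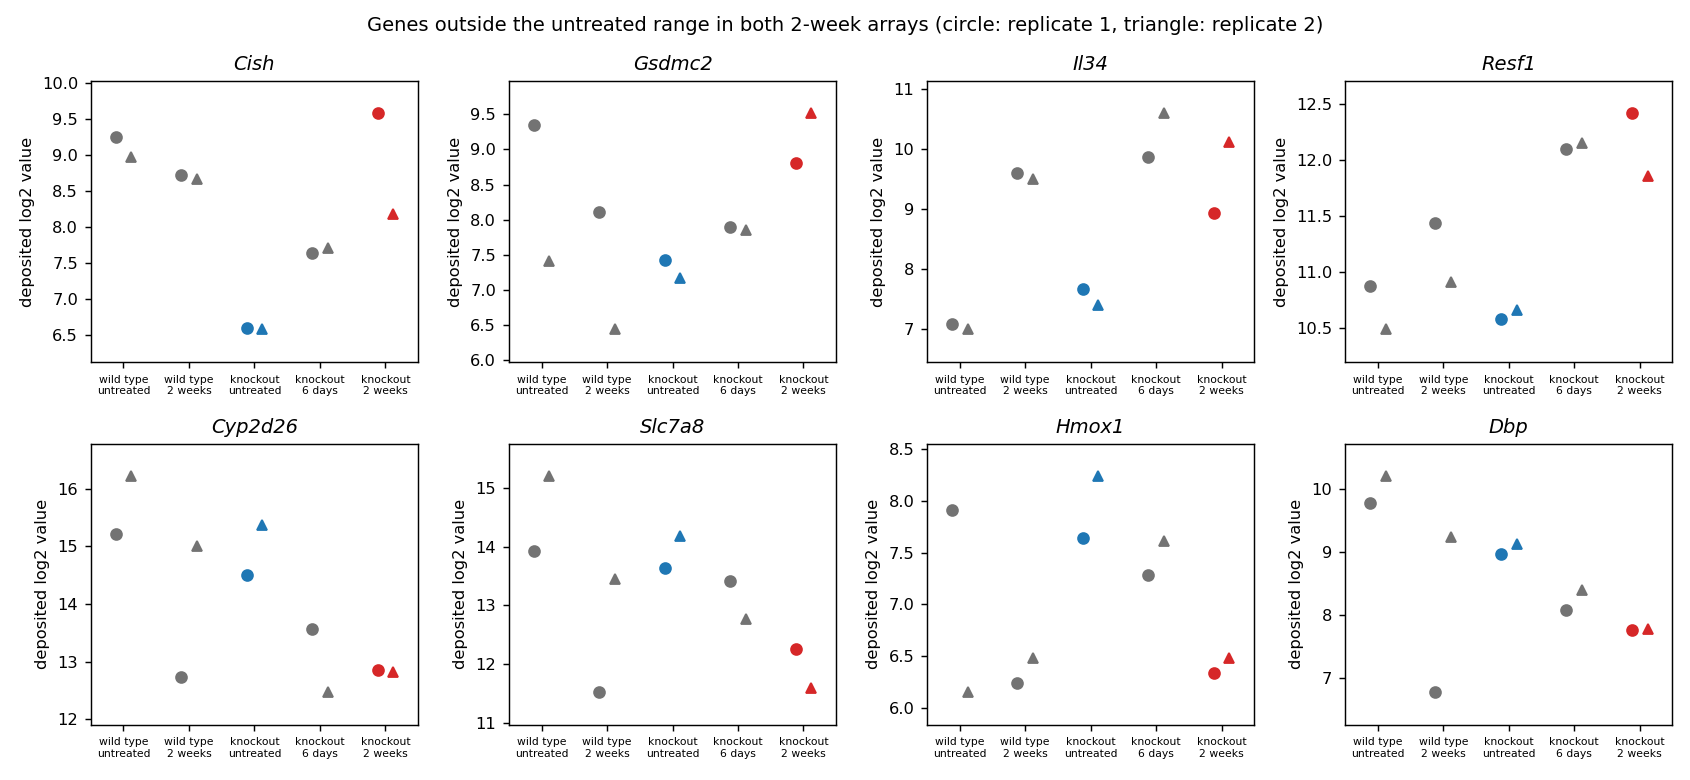
Deposited log2 level (vertical axes) of 8 genes whose knockout 2-week arrays (red) both lie outside both untreated knockout arrays (blue), beside knockout at 6 days and wild type (grey), with circles for replicate 1 and triangles for replicate 2. Cish stands at 9.58 and 8.18 at 2 weeks against 6.59 and 6.57 untreated in knockout, and higher, at 9.25 and 8.98, in untreated wild type.

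The test of whether the knockout response at 2 weeks differed from that of wild type called none of 30142 genes (2244 at an unadjusted p under 0.05, limma, smallest adjusted p = 0.431). This rests on the discordant arrays: without knockout 2-week replicate 2 it called 535 genes, without wild type 2-week replicate 1 it called 1664, of which 1486 were lower in the knockout response, and without knockout 2-week replicate 1 none (2154 at an unadjusted p under 0.05, limma). Of named genes Ly86, Sec14l3 and Irf1 had the smallest p. Ly86, a myeloid partner of a Toll-like receptor homologue, was at 5.85 and 5.77 in untreated knockout and 5.77 and 5.87 at 2 weeks, and in wild type at 5.86 and 5.73, then 6.69 and 6.90 (difference of responses -0.98, limma adjusted p = 0.431). Irf1, an interferon-induced transcription factor, was at 6.30 and 6.29, then 6.19 and 6.52 in knockout, and at 6.40 and 6.34, then 7.56 and 7.39 in wild type. Both 2-week wild type arrays were above untreated for these genes, while the knockout arrays lay around the untreated level. Sec14l3, a lipid transfer protein, was at 6.42 and 6.33, then 6.94 and 6.20 in knockout, and at 9.10 and 8.97, then 5.88 and 6.09 in wild type.

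Against knockout at 6 days, the 2-week arrays gave no called gene (2675 at an unadjusted p under 0.05, limma, smallest adjusted p = 0.0629). Without 2-week replicate 1 the count was 50, and without 2-week replicate 2 it was 1150. C4b, a complement component, was at 9.87 and 10.52 at 6 days and at 8.03 and 8.17 at 2 weeks, and Tagln, an actin-binding protein of smooth muscle, at 11.69 and 12.49, then 7.92 and 9.48. Thbs2, a matricellular thrombospondin, was at 8.98 and 9.42, then 6.37 and 7.42. For all 3, which had the smallest p of named genes, both 2-week arrays lay below both 6-day arrays (limma adjusted p between 0.125 and 0.133). Fgg, a fibrinogen chain, was at 14.57 and 16.14 at 6 days and at 7.0 and 11.25 at 2 weeks, with 8.01 and 8.06 untreated.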

How the data were processed

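RNA of 16 arrays was measured from 10 ng each with a Pico kit, per the labels' protocols. The authors deposited log2 values for 72688 probesets. The submitters' processing notes name Affymetrix Expression Console and Transcriptome Analysis Console. No version, setting or annotation build is given in the sources used here. Values ran from 2.22 to 19.93 and array medians from 5.57 to 5.9. Precision is limited by the number of arrays.

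The 30604 probesets with exactly 1 symbol were used (827 updated through the Entrez identifier), leaving out 2146 with several and 39938 with none. For 355 genes with more than 1 probeset the one with the highest mean was taken, which left 30142 genes. In limma 3.58.1 (R 4.3.3) a mean for each of 8 groups was fitted to all 16 arrays with an intensity trend (8 residual and 3.03 prior degrees of freedom), or to 15 arrays for a lone 2-week array (7 and 3.38). Each array is 1 mouse.

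Named genes were Esr1, the called genes with the greatest differences in each comparison (up to 15), those with the greatest gap between non-overlapping groups (8 each way), the 3 smallest p-values where none was called, and the leading members of each list. Numbered transcripts were counted only, with exceptions said in place. Members and lists were chosen with earlier results of these data known. Promoters were compared with Biopython 1.88. The fits were tested on simulated data. The noise drawn there had the same spread for a gene in every array, so that test cannot bear on the assumption made for a lone array. Alternatives changed the scale, filter, moderation, probeset summary and arrays, or added the replicate number as a block. Arrays left out in turn were the untreated knockout arrays and those of the groups compared, and not the other arrays of a fit. For a lone 2-week array they were the untreated knockout arrays only. The labels do not say that replicate numbers pair the arrays. Deviations of same-numbered arrays correlated at 0.0414 between untreated and 2-week knockout, 0.593 between 6 days and 2 weeks and 0.238 between 18 hours and 2 weeks in knockout, and over 0.1 in 11 of 28 pairs of groups, so the numbers were not taken as pairs.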

Additional observations from a re-analysis of the deposited data

How the results depend on the processing

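Leaving out each array in turn here means the untreated knockout arrays and those of the groups compared only. Under the settings that left out no array in turn, most results of single genes kept their direction and side of the threshold. Over both arrays 186 gene values did so and 19 were no longer called, while Esr1 turned from 0.11 to -0.01 after median centring. In replicate 2 alone, 680 gene values did so, 48 were no longer called and 5 became so, and in replicate 1 alone 90, with 27 no longer called. Leaving out each array in turn ended calls in 158 gene values of replicate 2, 21 of replicate 1 and 10 over both arrays.

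The 33 genes called over both arrays were 19 after centring, 18 without the 18-hour replicates 2, 18 without any 18-hour array (a setting chosen after seeing the data) and 0 with the 4 arrays alone. Leaving out each array in turn gave 2 to 1598. The 1598 calls of replicate 2 were 3 to 87 without an untreated array, and 1305 to 2364 under the other settings. The 731 calls of replicate 1 were 93 among genes above the median level, 438 after centring and 266 to 396 without an untreated array. Against the wild type response, leaving out the 18-hour replicates 2, or all 18-hour arrays, gave 1 call in place of 0, and leaving out each array in turn 0 to 1664. Against 6 days there were 2 calls among brighter genes and 0 to 1150 without 1 array. The cause was not tested.

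With the replicate number as a block the calls over both arrays were 27, in replicate 2 1305, in replicate 1 615, and 0 in the other 2 comparisons. The numbers were not taken as pairs, although deviations of same-numbered knockout arrays at 6 days and 2 weeks correlated at 0.593. With 2 arrays a group, and a lone array in most calls, differences below the spread of all groups were not detectable.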
